A study of Mus musculus with 6 samples.

Results

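Brown and beige adipocyte fate is set by a small group of DNA-binding factors and cofactors, and 10 of them were examined by their gene symbols. *Prdm16*, *Ebf2*, *Ehmt1*, *Zfp516*, *Irf4* and *Foxc2* promote the thermogenic program. *Zfp423* and *Tle3* hold it back, and the corepressors *Ctbp1* and *Ctbp2* silence genes of white fat and muscle with PRDM16. These members are 10 of the 55401 genes counted, all 10 passed the filter on low counts, and the rule that lists them uses no measured value. Subcutaneous white adipose tissue (scWAT) was taken from 8-week-old male mice kept at room temperature, and its total RNA was sequenced. The control mice carried floxed *Yap* and *Taz* alleles without Cre (YT-FF, 3 libraries, labelled WT by the submitters). The YT-AKO mice carried the same floxed alleles together with Cre driven by *Adipoq*, a gene of mature adipocytes, so the other cells of the tissue kept both genes (3 libraries). By the study's methods each group was 3 mice, and p-values measure the spread between them.

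PRDM16 is a zinc finger coregulator that is brought to DNA by other factors, among them C/EBPβ, PPARγ and EBF2, and switches precursors of fat towards the brown program. With its partner EHMT1, a histone methyltransferase, it activates thermogenic genes, and with the corepressors CtBP1 and CtBP2 it silences genes of white fat and muscle. ZFP423 and TLE3 act in the opposite direction, ZFP423 by restraining EBF2 and TLE3 by competing with PRDM16 at PPARγ. YAP and TAZ reach DNA mainly through TEAD factors.

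The promoters of 3 members are shown because they carry, or lack, the short motifs of the factors this mouse model bears on. RefSeq promoter windows of GRCm38.p6 run from 250 bases before a start site to 50 bases after it. Windows of 7 of the 10 members (9 windows) were used, and no window was searched for the other members. Both strands were searched for GGAATG (TEAD), TTGCNNAA (C/EBP), CCCNNGGG (EBF), GAAA, any 2 bases and GAAA again (IRF) and TGACGTCA (CRE), and no match overlapped a match of another motif. The 250 bases before the start site are printed 5′ to 3′ on the strand of the gene, with a matched motif in capitals: *Prdm16* at chr4:154636874-154637123 (minus strand), *Irf4* at chr13:30748983-30749232 (plus strand) and the first window of *Zfp423* at chr8:87959596-87959845 (minus strand).
Prdm16: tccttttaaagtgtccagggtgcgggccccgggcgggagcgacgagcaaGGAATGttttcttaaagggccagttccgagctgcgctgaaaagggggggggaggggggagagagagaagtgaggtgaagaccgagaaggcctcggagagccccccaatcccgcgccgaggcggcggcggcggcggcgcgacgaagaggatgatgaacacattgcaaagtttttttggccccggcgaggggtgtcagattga
Irf4: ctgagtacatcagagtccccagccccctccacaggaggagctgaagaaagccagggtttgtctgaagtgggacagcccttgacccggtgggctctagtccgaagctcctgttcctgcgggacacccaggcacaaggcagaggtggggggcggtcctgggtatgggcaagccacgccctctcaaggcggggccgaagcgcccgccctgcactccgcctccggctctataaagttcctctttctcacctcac
Zfp423: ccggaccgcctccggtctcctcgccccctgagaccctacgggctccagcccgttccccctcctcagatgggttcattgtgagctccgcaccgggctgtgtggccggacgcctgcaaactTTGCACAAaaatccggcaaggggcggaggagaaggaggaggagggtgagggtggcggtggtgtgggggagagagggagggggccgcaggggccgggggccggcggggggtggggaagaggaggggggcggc

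The *Prdm16* window held 1 TEAD motif, GGAATG, which began 201 bases before the start site. This motif lay in 14.7% of the 32851 full-length windows of the promoter table. The *Zfp423* window held 2 C/EBP motifs, TTGCACAA at 131 bases before the start site and TTGCATAA at 22 bases after it, against 10.8% of all windows with at least 1. A second *Zfp423* window, at another start site, held the EBF motif CCCGTGGG at 28 bases before the start (13.7% of all windows). The second *Ctbp2* window held the IRF motif GAAACAGAAA at 96 bases before the start (3.44% of all windows). None of the motifs was found in the windows of *Irf4*, *Ehmt1*, *Ctbp1* and *Tle3*, nor in the first window of *Ctbp2*. The CRE letters, present in 1.79% of all windows, were in none of the members' windows that were searched. These matches describe letters in short windows and say nothing of binding.

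Total counts ran from 17740987 to 21838493 per library, and 16807 genes were tested. Of these, 2121 were called higher in YT-AKO (12.6%) and 1515 lower (9.01%) at an adjusted p under 0.05. Scaling by library totals alone turned this split to 1137 higher and 2828 lower and moved the median log2 fold change of all tested genes from -0.021 to -0.34. Among the targeted genes, *Yap1* was lower, at a mean of 64.3 ± 6.34 CPM (SD, n = 3) in YT-FF and 32.7 ± 4.53 in YT-AKO, but *Wwtr1*, which encodes TAZ, was higher, at 84.1 ± 12.7 against 156 ± 21.5, and the second of these goes against the label. Counts sum all exons of a gene, so losing the floxed exons alone would remove only the counts of those exons. *Wwtr1* counts therefore do not tell whether the allele was deleted. CPM here are counts scaled to library size with TMM factors. The library labelled YT-AKO 2 stood apart, with a chi-square per gene of 182 and 165 against the other YT-AKO libraries, while those 2 differed by 32.1 and the YT-FF libraries by 13.4 to 37.0. Fold changes also fell with exon length (Spearman's rho across genes -0.376, or -0.283 without YT-AKO 2), and 9 of the 10 members are longer than the median tested gene. Adipocyte markers were abundant in every library (*Adipoq*, 1473 to 2402 CPM), and the epithelial marker *Krt5* had no count.

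Across the 10 members, *Irf4* was lower in YT-AKO and no member was higher. Thus 1 of 10 was called lower, against 9.01% of all tested genes, and 0 of 10 were called higher, against 12.6%. DESeq2 gave the same counts of members (against 16.2% of its genes higher and 12.6% lower), and 4 of 10 had an unadjusted p under 0.05, against 40.8% of all tested genes. The 5 positive and 5 negative log2 fold changes had a median of -0.00023, beside -0.021 for all tested genes. The CPM of the groups did not overlap for 4 members, lower for *Ehmt1*, *Zfp516* and *Irf4* and higher for *Ctbp1*, against 51.5% of all tested genes (25.8% lower and 25.7% higher). Over either direction, 1 of 10 called stands beside 21.6% of all tested genes. These shares lie near or below the background. In the same libraries the thermogenic genes *Ucp1* and *Cidea*, which these factors control, were higher by 5.27 and 3.17 on the log2 scale.

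**Figure D1:**
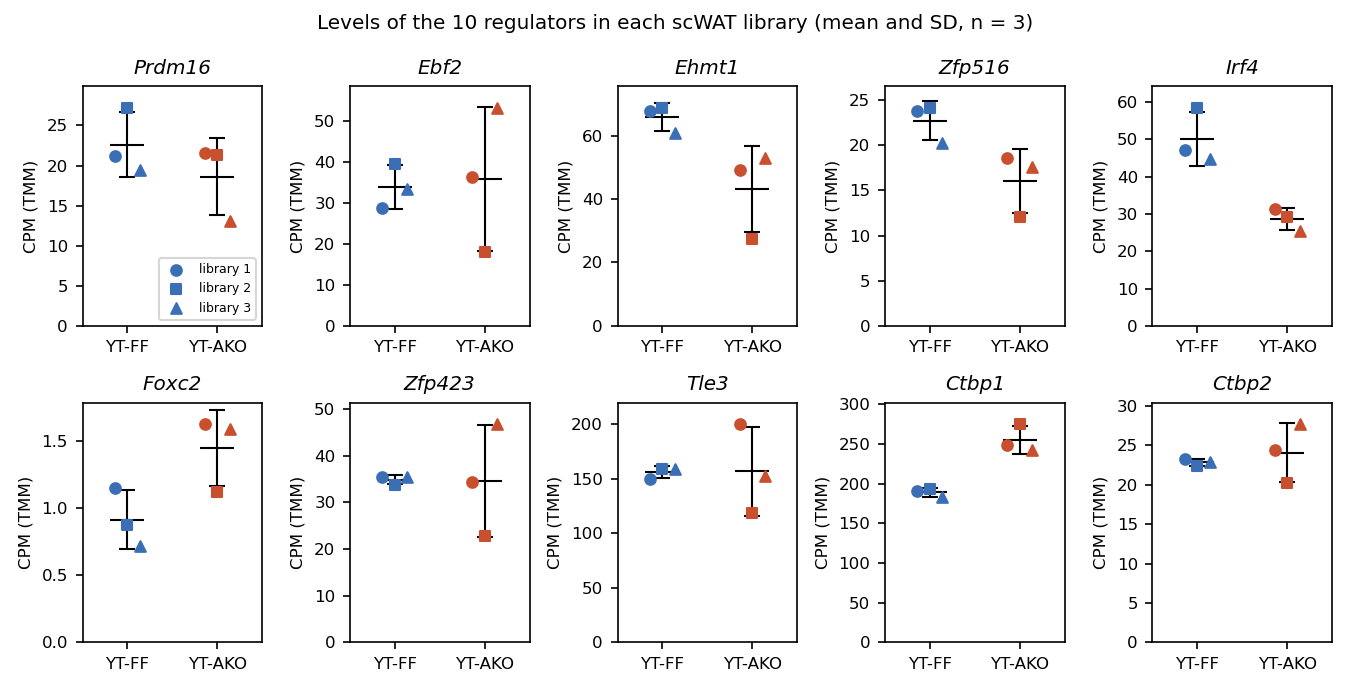
Each panel plots 1 regulator in CPM (TMM-scaled, linear axis from 0) in the 3 YT-FF (blue) and 3 YT-AKO libraries (red), with the mean and SD in black. The YT-AKO points of *Irf4*, *Ehmt1* and *Zfp516* all lie below the YT-FF points, and those of *Ctbp1* all lie above. Those of *Prdm16*, *Ebf2*, *Zfp423*, *Tle3*, *Ctbp2* and *Foxc2* overlap with YT-FF.

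*Prdm16* (ENSMUSG00000039410, chromosome 4, 154316125 to 154636873 of mm10, minus strand), the central coregulator, gave 496, 619 and 378 counts across the YT-FF libraries, numbered 1 to 3, against 370, 361 and 221 in the YT-AKO libraries. In CPM these were 21.1, 27.2 and 19.5 against 21.5, 21.3 and 13.1. YT-AKO 1 and 2 lay inside the YT-FF range and YT-AKO 3 lay below it, so the groups overlapped. The mean was 22.6 ± 4.07 CPM in YT-FF and 18.6 ± 4.82 CPM in YT-AKO (SD, n = 3). The log2 fold change was -0.28 (standard error 0.245, 95% interval -0.85 to 0.29, edgeR quasi-likelihood fit, Benjamini-Hochberg-adjusted p = 0.413). It was -0.070 without YT-AKO 3, and a correction for gene length turned it to 0.17. A difference in *Prdm16* mRNA was not detectable between these groups, and the interval still holds moderate changes in either direction.

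*Ebf2* (ENSMUSG00000022053, chromosome 14, 67233292 to 67430918, plus strand) encodes a DNA-binding factor that marks committed brown and beige precursors and recruits other activators to brown genes. It had 28.8, 39.3 and 33.4 CPM in YT-FF and 36.2, 17.9 and 53.1 CPM in YT-AKO. YT-AKO 2 was the lowest and YT-AKO 3 the highest of all 6 libraries, and the spread within YT-AKO, a coefficient of variation of 49.2%, was the largest of any member. Its log2 fold change was 0.080 (standard error 0.355, 95% interval -0.74 to 0.90, edgeR, Benjamini-Hochberg-adjusted p = 0.880). It was 0.40 without YT-AKO 2 and -0.32 without YT-AKO 3. *Ebf2* shares 6.12% of its exon bases with Gm10860, and unstranded counting left out fragments there.

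*Ehmt1* (ENSMUSG00000036893, chromosome 2, 24789928 to 24919614, minus strand) encodes the methyltransferase of histone H3 lysine 9 that stabilizes PRDM16 and activates with it. It had 67.8, 68.7 and 60.8 CPM in YT-FF and 49.1, 27.5 and 52.8 CPM in YT-AKO. Every YT-AKO library lay below every YT-FF library, with YT-AKO 2 far below the other two. Its log2 fold change was -0.61 (standard error 0.246, 95% interval -1.18 to -0.038, edgeR, Benjamini-Hochberg-adjusted p = 0.105), so it did not pass the threshold over all genes. Without YT-AKO 2 it was -0.37 and was called, at an adjusted p just under 0.05, while with the length correction it was -0.28 and was not called.

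*Zfp516* (ENSMUSG00000058881, chromosome 18, 82910663 to 83005314, plus strand), a cold-induced zinc finger factor that binds the *Ucp1* promoter and interacts with PRDM16, had 23.8, 24.1 and 20.2 CPM in YT-FF. Its YT-AKO values were 18.6, 12.0 and 17.6 CPM. As with *Ehmt1*, all YT-AKO libraries were lower and YT-AKO 2 was the lowest. This gave a log2 fold change of -0.50 (standard error 0.212, 95% interval -0.99 to -0.0063, edgeR, Benjamini-Hochberg-adjusted p = 0.119). It was -0.33 without YT-AKO 2 and -0.14 with the length correction, and neither was called.

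*Irf4* (ENSMUSG00000021356, chromosome 13, 30749226 to 30766976, plus strand) was the member with the clearest difference. IRF4 is induced by cAMP in fat, where it drives lipolysis and, with PGC-1α, *Ucp1*, and it is also a lineage factor of B cells, plasma cells, T cells and macrophages. The counts were 1105, 1330 and 869 in YT-FF and 539, 497 and 432 in YT-AKO. In CPM these were 47.1, 58.4 and 44.7 against 31.3, 29.3 and 25.5, so every YT-AKO library lay below every YT-FF library, and the 3 YT-AKO libraries were close to each other. The means were 50.1 ± 7.33 and 28.7 ± 2.95 CPM (SD, n = 3), a ratio of 0.573 in the fit. The log2 fold change was -0.80 (standard error 0.170, 95% interval -1.20 to -0.41, edgeR, Benjamini-Hochberg-adjusted p = 0.0235). *Irf4* stayed negative in all 19 fits (-1.14 to -0.66) and was called in 14 of them. YT-AKO 2 did not set this difference, since without it the log2 fold change was -0.82 (adjusted p = 0.00806, same edgeR test). The call was lost without YT-FF 1 (adjusted p = 0.112, edgeR), YT-FF 2 (0.124) or YT-AKO 3 (0.0515), and when the replicate number was added as a block (0.0628) or with the length correction as well (0.0797), all from the same test. Without YT-FF 1 edgeR called no gene at all, although 27.2% of the genes had an unadjusted p under 0.05, and without YT-FF 2 it called 2.

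Because IRF4 is abundant in lymphoid cells, the markers of the cells that a scWAT sample can hold were set beside it. The 6 B cell markers summed to 1047 to 1236 CPM in YT-FF and 619 to 953 CPM in YT-AKO, and 3 of the 6 were called lower (all 6 without YT-AKO 2). Of all tested genes, 9.01% were called lower and 12.6% higher (14% and 16.9% without YT-AKO 2). *Ms4a1* and *Cd22*, both surface proteins of B cells, had log2 fold changes of -1.17 and -1.27, and *Pax5* was at 151, 155 and 121 against 53.4, 136 and 46.5 CPM. The B cell receptor genes *Cd79a* (-0.14) and *Cd79b* (-0.082) were not called, and their YT-AKO 2 values, 241 and 284 CPM, lay above every YT-FF library. In the sum, YT-AKO 2 (953 CPM) lay nearest to YT-FF, whereas *Irf4* in that library, 29.3 CPM, lay between YT-AKO 1 and YT-AKO 3. The 6 macrophage markers summed to 1084 to 1261 CPM in YT-FF and 1562 to 2139 in YT-AKO, with 1 called higher (*C1qa*) and none lower. The 5 plasma cell markers summed to 283 to 409 CPM and 322 to 338 CPM, with *Sdc1* called higher. The 6 T cell markers summed to 316 to 493 and 277 to 613 CPM, with *Cd4* called lower. The summed B cell markers were thus lower with *Irf4*, the summed macrophage markers were higher, and the part of these cells in the *Irf4* difference was not tested. Of the markers of other cells, 3 of 7 adipocyte markers were called higher (*Fabp4*, *Lipe* and *Pnpla2*), with sums of 17250 to 25070 CPM in YT-FF and 26960 to 40730 CPM in YT-AKO. Of 8 progenitor and fibroblast markers 2 were called higher (*Pi16* and *Lum*) and 1 lower (*Dpp4*), and of 5 tested skeletal muscle markers 1 was called higher (*Acta1*). Of the rest, 1 of 6 endothelial markers was called lower (*Kdr*), and none of 6 pericyte, 5 Schwann cell and 1 tested epithelial marker was called. In bulk tissue, fewer cells of a type and less RNA per cell cannot be told apart.

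**Figure D2:**
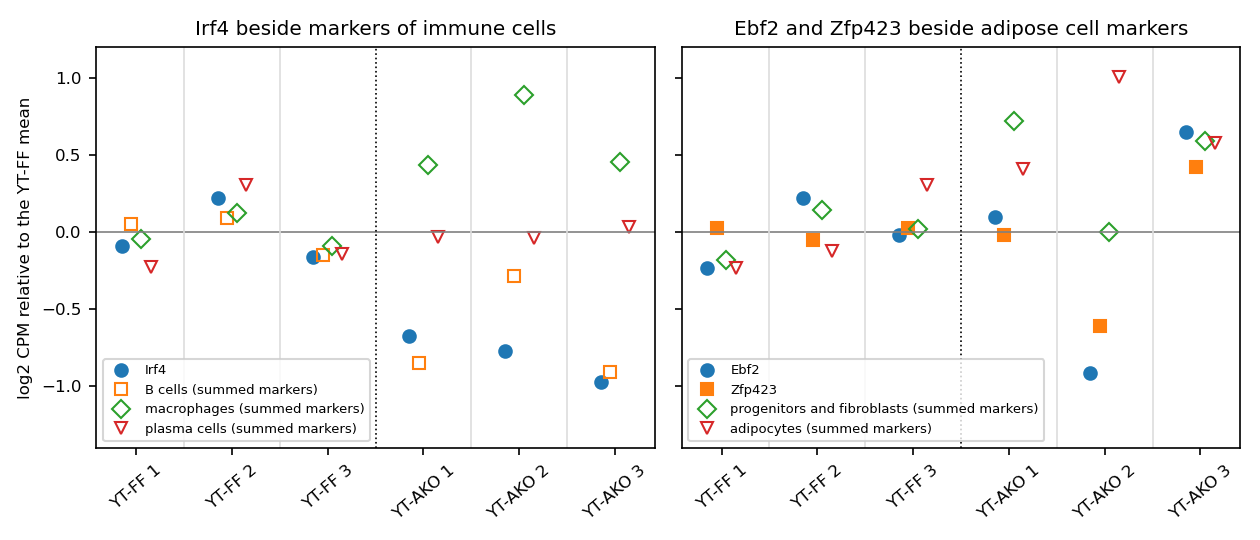
Points give the log2 CPM of each library relative to the YT-FF mean, for *Irf4* beside summed B cell, macrophage and plasma cell markers (left) and for *Ebf2* and *Zfp423* beside summed progenitor and adipocyte markers (right). In YT-AKO 1 to 3 *Irf4* was at -0.68, -0.77 and -0.97 and the B cell sum at -0.85, -0.29 and -0.91, while *Ebf2* and *Zfp423* were lowest in YT-AKO 2 and highest in YT-AKO 3.

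*Foxc2* (ENSMUSG00000046714, chromosome 8, 121116171 to 121118895, plus strand), a forkhead factor that raises cAMP signalling in fat and is also needed in lymphatic vessels, was the least abundant member. Its counts were only 27, 20 and 14 in YT-FF and 28, 19 and 27 in YT-AKO. The CPM were 1.15, 0.879 and 0.721 against 1.63, 1.12 and 1.60, so YT-AKO 2 lay just inside the YT-FF range. On the log2 scale the difference was 0.65 (standard error 0.406, 95% interval -0.29 to 1.59, edgeR, Benjamini-Hochberg-adjusted p = 0.259), and at this depth a difference was not detectable. The 4 lymphatic markers that were tested had a median log2 fold change of -0.81, and none was called. *Prox1*, the master factor of lymphatic endothelium, was at 10.9, 9.67 and 6.39 CPM in YT-FF and 5.93, 3.42 and 2.54 CPM in YT-AKO, and had the lowest fold of the list. *Lyve1* had a log2 fold change of -0.11, with its highest level, 89.4 CPM, in YT-AKO 1, and *Ccl21a* was too low to be tested. *Prox1*, *Flt4* (-0.81) and *Reln* (-0.80) were each lower in every YT-AKO library than in any YT-FF library, as were 25.8% of all tested genes. The summed markers were at 80.6 to 94.5 CPM in YT-FF and at 112, 48.2 and 54.9 CPM in YT-AKO 1 to 3. *Lyve1* made up most of this sum, which did not move one way in YT-AKO.

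Of the repressors, *Zfp423* (ENSMUSG00000045333, chromosome 8, 87661810 to 87959595, minus strand), which keeps white adipocytes white by restraining EBF2, had 35.5, 33.7 and 35.4 CPM in YT-FF. The YT-AKO values were 34.4, 22.8 and 46.7 CPM. The YT-FF libraries were nearly equal, with a coefficient of variation of 2.88%, while YT-AKO 2 lay below and YT-AKO 3 above them (34.5%). The estimate for the difference was -0.0092 on the log2 scale (standard error 0.250, 95% interval -0.59 to 0.57, edgeR, Benjamini-Hochberg-adjusted p = 0.981).

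*Zfp423* and its target partner *Ebf2* were low and high in the same YT-AKO libraries. The within-library ratio of their counts, which does not depend on library scaling, was 1.23, 0.857 and 1.06 in YT-FF and 0.949, 1.27 and 0.880 in YT-AKO. The log2 ratio differed by -0.026 (exact permutation test over libraries, two-sided, p = 1, smallest possible p 0.1, adjusted over 3 ratios p = 1), and the groups overlapped. The progenitor and fibroblast markers summed to 7285, 4427 and 6681 CPM in YT-AKO 1 to 3, against 3904 to 4897 CPM in YT-FF, so they too were lowest in YT-AKO 2 among these libraries. *Pdgfra*, which marks the progenitors, was at 97.0, 38.3 and 70.0 CPM there, but other markers of the list did not share this order: *Pi16* was highest in YT-AKO 2 (282, 384 and 333 CPM) and *Cd34* was level (152, 153 and 157 CPM). The collagen genes *Col1a1* (1729, 711 and 1499 CPM) and *Col3a1* (4079, 2357 and 3678 CPM) made up most of the sum. The adipocyte markers ran the other way, with their highest sum, 40730 CPM, in YT-AKO 2. Whether the share of progenitors bears on *Ebf2* and *Zfp423* was not tested.

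*Tle3* (ENSMUSG00000032280, chromosome 9, 61372366 to 61418497, plus strand), a Groucho-family corepressor that favours the white, lipid-storing program, had 149.6, 159 and 159 CPM in YT-FF and 199.8, 119 and 152 CPM in YT-AKO. YT-AKO 1 was the highest and YT-AKO 2 the lowest of the 6 libraries. On the log2 scale the difference was 0.0088 (standard error 0.208, 95% interval -0.47 to 0.49, edgeR, Benjamini-Hochberg-adjusted p = 0.978). With 11653 bases of exon, *Tle3* is the longest member, and the length correction moved it to 0.49 (adjusted p = 0.0726, edgeR with Benjamini-Hochberg adjustment), and to 0.54 when YT-AKO 2 was left out too, where it was called higher (adjusted p = 0.0273). YT-AKO 1 also held the most skeletal muscle RNA, with 7 summed markers at 2741 CPM. The sum was 414 and 205 CPM in YT-AKO 2 and 3 and 103 to 382 CPM in YT-FF. Whether muscle RNA bears on *Tle3* was not tested.

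TLE3 and PRDM16 compete for PPARγ, and the ratio of *Tle3* to *Prdm16* counts was 7.07, 5.85 and 8.16 in YT-FF and 9.28, 5.58 and 11.6 in YT-AKO. YT-AKO 1 and 3 lay above the YT-FF libraries and YT-AKO 2 below them. The difference in log2 ratio was 0.28, which the spread between libraries does not separate from 0 (exact permutation test, two-sided, p = 0.5, adjusted over 3 ratios p = 0.75).

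*Ctbp1* (ENSMUSG00000037373, chromosome 5, 33247723 to 33274994, minus strand) encodes the corepressor through which PRDM16 silences white-selective genes. It had 191, 194 and 183 CPM in YT-FF and 249, 275 and 242 CPM in YT-AKO, so every YT-AKO library lay above every YT-FF library. The means were 189 ± 5.71 and 255 ± 17.3 CPM (SD, n = 3), with a log2 fold change of 0.43 (standard error 0.149, 95% interval 0.089 to 0.78, edgeR, Benjamini-Hochberg-adjusted p = 0.0692), which did not pass the threshold. Without YT-AKO 2 it was 0.38 and was called (adjusted p = 0.0372, edgeR). With library totals alone it was 0.10, and with a GC correction 0.22.

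Its paralogue *Ctbp2* (ENSMUSG00000030970, chromosome 7, 132987563 to 133124354, minus strand), which can stand in for CtBP1 on PRDM16, had 23.3, 22.4 and 22.9 CPM in YT-FF and 24.4, 20.2 and 27.7 CPM in YT-AKO. The YT-AKO libraries lay on both sides of YT-FF. Its log2 fold change was 0.075 (standard error 0.171, 95% interval -0.32 to 0.47, edgeR, Benjamini-Hochberg-adjusted p = 0.765). The ratio of *Ctbp1* to *Ctbp2* counts was 8.17, 8.66 and 7.99 in YT-FF and 10.2, 13.6 and 8.74 in YT-AKO. The groups did not overlap, the log2 ratio was 3.05 ± 0.06 against 3.42 ± 0.32 (SD, n = 3), and the exact two-sided permutation p was 0.1, the smallest this design allows (adjusted over 3 ratios p = 0.3). The difference of 0.37 fell to 0.19 without YT-AKO 2, which had the highest ratio. With the length correction it was 0.23 (exact permutation test, two-sided, p = 0.3).

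**Figure D3:**
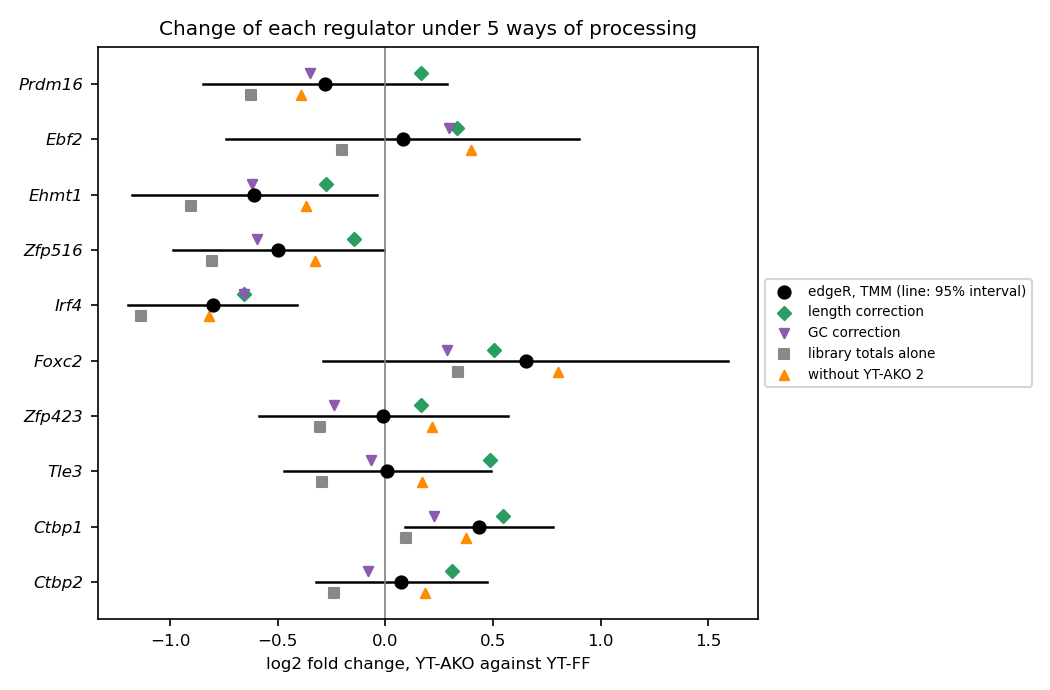
Log2 fold changes (YT-AKO against YT-FF, horizontal axis) of the 10 regulators are plotted as edgeR estimates with 95% intervals (black) and under a length correction, a GC correction, library totals alone and without YT-AKO 2. All 5 estimates of *Irf4* lie between -1.14 and -0.66, and the estimates of *Prdm16* span 0, from -0.63 to 0.17.

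Within YT-AKO, 7 of the 10 members were lowest in YT-AKO 2, against 44% of all tested genes. The coefficient of variation was larger in YT-AKO than in YT-FF for 8 of 10, near the 75.9% of all tested genes. Without YT-AKO 2, 1 member was called higher (16.9% of all genes then tested) and 2 lower (14%), with the length correction 0 higher (9.59%) and 1 lower (4.14%), and with library totals alone 0 higher (6.77%) and 1 lower (16.8%). The median log2 fold change of the members was 0.18 without YT-AKO 2, with the length correction 0.24 (0.073 for all tested genes), and with library totals alone -0.30 (-0.34 for all tested genes). No test compared the activators with the repressors and corepressors. The 6 activators had a median of -0.39 and the 4 repressors and corepressors a median of 0.042. With the length correction these became 0.011 and 0.40.

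Levels of different genes can be compared only per length, and TPM (counts per summed exon length, scaled to the same total in every library) was used for that within each group. In YT-FF, *Ctbp1* was the most abundant member, with 161 ± 12.1 TPM, followed by *Tle3* with 50.8 ± 2.71 TPM and *Irf4* with 39.0 ± 7.29 TPM (SD, n = 3). *Ehmt1* (30.9 ± 3.40 TPM), *Zfp423* (23.6 ± 0.766 TPM), *Ebf2* (18.6 ± 3.39 TPM) and *Ctbp2* (14.0 ± 0.612 TPM) came next. *Zfp516* had 10.5 ± 1.45 TPM, *Prdm16* 9.26 ± 2.05 TPM and *Foxc2* 1.28 ± 0.335 TPM. The corepressors *Ctbp1* and *Tle3* thus had higher levels than the activators, and *Prdm16* itself was next to last. The libraries of neighbours in this order overlapped only between *Irf4* and *Ehmt1* and between *Zfp516* and *Prdm16*. In YT-AKO the order was the same except that *Zfp423* (15.6 ± 7.87 TPM) came before *Irf4* (14.2 ± 3.67 TPM) and *Ehmt1* (13.5 ± 6.55 TPM), all overlapping. The mean TPM was lower in YT-AKO for 9 of 10 members and the mean CPM for 5, so TPM was not used between groups.

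**Figure D4:**
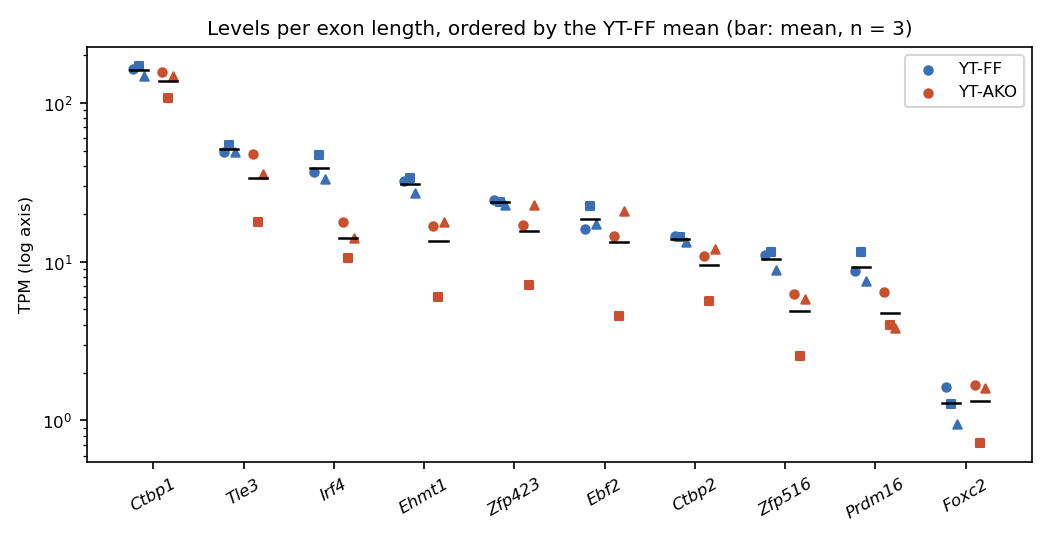
TPM of each regulator (log axis) is plotted for the 3 YT-FF (blue) and 3 YT-AKO libraries (red), ordered by the YT-FF mean (bars are means, and circles, squares and triangles are libraries 1, 2 and 3). *Ctbp1* stands at 161 TPM in YT-FF and *Foxc2* at 1.28, and YT-AKO 2 (red squares) is the lowest YT-AKO library for every member but *Prdm16*.

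The genes whose pattern over the 6 libraries was nearest to that of *Prdm16* were *Tspan33*, *Lcp2*, *Slc39a8*, *Glycam1* and *Gm20465*. The root mean square difference of their log2 CPM deviations from those of *Prdm16* was 0.0712, 0.0813, 0.0959, 0.103 and 0.108, among 15179 genes with a mean of at least 1 CPM. Of the other members, *Irf4* was the nearest (0.291, rank 1510) and *Ebf2* the farthest (0.663, rank 11736). This is a description over 6 libraries that share their depth and scaling, and no member ranked among the nearest genes.

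Related genes were counted from lists chosen for their roles. Of 16 partners of PRDM16, 1 was called higher and none lower, against 12.6% and 9.01% of all tested genes. The list had a median log2 fold change of 0.073. The gene that rose was *Cebpb*, the bZIP factor that forms a complex with PRDM16 in precursors. It had 87.0, 107 and 155 CPM in YT-FF and 392, 552 and 325 CPM in YT-AKO, a log2 fold change of 1.86 (standard error 0.289, edgeR, Benjamini-Hochberg-adjusted p = 0.0177). *Cebpb* shares 20.7% of its exon bases with *Tmem189*, and without strand the fragments there could not be assigned. *Cebpa* (0.58), *Cebpd* (1.31), *Pparg* (0.29) and *Ppara* (-0.36) were not called.

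Of 12 other activators of the brown or beige fate, 1 was called higher and none lower, against 12.6% and 9.01% of all tested genes. The called gene was the mitochondrial regulator *Esrra* (0.61, adjusted p = 0.0380, edgeR with Benjamini-Hochberg adjustment). *Nfia* (0.44), *Klf11* (0.040), *Ebf1* (-0.36) and *Dpf3* (0.024) were not called, and the median of the list was -0.17. Of 12 other repressors, 3 were called higher, against 12.6% of all tested genes, and 4 lower, against 9.01%. The position gene *Hoxc10*, the Notch target *Hes1* and *Nr1h3*, which encodes LXRα, were higher by 1.03, 0.92 and 1.06 on the log2 scale. The pocket protein genes *Rb1* and *Rbl1*, the forkhead gene *Foxp1* and the corepressor gene *Ncor1* had log2 fold changes of -0.77, -1.19, -1.03 and -0.78. *Nrip1* (-0.41), *Twist1* (0.68) and *Hoxc8* (0.50) were not called. With the length correction, 2 of the 12 were called higher and 1 lower, while the share of all tested genes called lower went from 9.01% to 4.14%.

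The paralogues of the members numbered 20. Of these, 1 was called higher, against 12.6% of all tested genes, and 3 lower, against 9.01% (median -0.16). With the length correction, 1 was called higher and 1 lower, against 9.59% and 4.14% of all tested genes. *Aes*, a short Groucho protein that lacks the WD repeats of TLE3, rose from 249 ± 31.4 to 584 ± 124 CPM (log2 fold change 1.23, adjusted p = 0.0182, edgeR with Benjamini-Hochberg adjustment). *Tle4*, *Irf2* and *Irf8* had log2 fold changes of -0.60, -0.79 and -0.53 and were called lower. *Irf8*, a factor of B cells, dendritic cells and macrophages, had 165, 151 and 156 CPM in YT-FF and 115, 115 and 98.0 CPM in YT-AKO. All its YT-AKO libraries were lower, as for *Irf4* and for 25.8% of all tested genes. *Mecom* (-0.82), *Ebf3* (-0.14), *Ebf4* (-0.027) and *Ehmt2* (0.19) were not called.

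Of 10 thermogenic genes that PRDM16 or EBF2 drives, against 12.6% and 9.01% of all tested genes, 7 were called higher and none lower (median 3.12). Besides *Ucp1* and *Cidea* these were *Dio2* (3.06), *Elovl3* (5.90), *Cox8b* (4.56), *Cox7a1* (3.94) and *Otop1* (1.65), while *Ppargc1a* (0.022), *Ppara* (-0.36) and *Cpt1b* (0.10) were not called. This list's rise was known from these data when the list was chosen and is no independent evidence. Of 4 white-selective genes that PRDM16 represses with CtBP, 2 were also called higher, *Agt* (1.67) and *Serpina3k* (3.01), with *Retn* (1.24) and *Psat1* (0.56) not called. *Retn* had 440 to 655 CPM in YT-FF and 705, 2353 and 669 CPM in YT-AKO, so its YT-AKO mean rests on YT-AKO 2. The thermogenic targets summed to 186 to 278 CPM in YT-FF and 1740 to 3673 CPM in YT-AKO. The 6 activators among the members summed to 179 to 219 CPM and 109 to 164 CPM. These sums are not levels per length, and the activators' median log2 fold change went from -0.39 to 0.011 with the length correction.

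**Figure D5:**
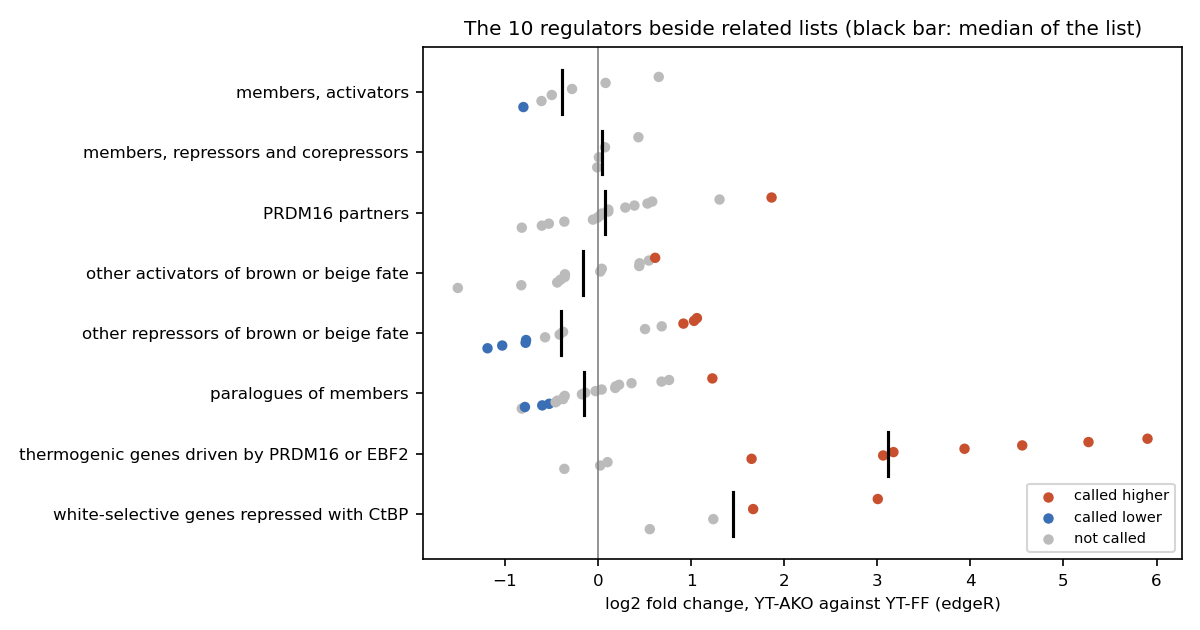
Each point is the log2 fold change (YT-AKO against YT-FF, edgeR) of 1 gene of a list, coloured by its call, and black bars are list medians. The members' medians, -0.39 for activators and 0.042 for repressors and corepressors, stand beside -0.021 for all tested genes. The thermogenic genes have a median of 3.12.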

How the data were processed

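Counts from 3 YT-FF and 3 YT-AKO scWAT libraries were compared by labelled genotype. The authors built NEBNext Ultra libraries, aligned read pairs with HISAT2 (mm10), and ran featureCounts 2.0.1 over GENCODE vM25 exons. The deposited values are raw counts per gene. Strand was ignored, and neither multi-mapping fragments nor those shared by genes were counted. Of 55401 genes, 55141 were matched to symbols.

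Counts were analysed in R 4.3.3 with edgeR 4.0.16: TMM scaling, filterByExpr (at least 10 counts, 15 in total), its quasi-likelihood test, and Benjamini-Hochberg adjustment over 16807 genes. A call needed an adjusted p below 0.05. The biological coefficient of variation was 0.288. TPM used summed exon lengths. Ratios of counts (0.5 added) used exact permutation tests over libraries. Total counts of 17740987 to 21838493 set the precision, and counting error alone is covered by them, since fragments carried no molecular identifiers.

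Alternatives were DESeq2 1.42.0, limma-voom (limma 3.58.1), upper-quartile scaling, library totals, no filter, 10 counts in every library, robust estimation, a replicate block, corrections for length and GC (a spline with 6 degrees of freedom per library), length correction with the block, and each library left out. The length correction without YT-AKO 2 was added after the data were seen. On simulated counts of 16807 genes with 200 changed by 3 on the log2 scale, edgeR called 192 and 10 unchanged genes, DESeq2 196 and 44, and limma-voom 189 and 9.

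All 10 members are named. From each list the called genes and up to 4 uncalled genes in list order are named, with the 5 genes nearest to *Prdm16* and the targeted genes. The values of *Irf8* and *Retn* per library and the single cell markers named were chosen after their values were seen. The members and lists were chosen with earlier results of these data known. Promoters came from RefSeq (GRCm38.p6). Some genes that these rules would name are not reported here.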

Additional observations from a re-analysis of the deposited data

How the results depend on the processing

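Of the members, *Irf4*, *Ehmt1*, *Zfp516*, *Ctbp1* and *Foxc2* kept their direction in all 19 fits. *Prdm16*, *Ebf2*, *Zfp423*, *Tle3* and *Ctbp2*, none of which was called by the main test, did not, and the causes were not tested. The length correction gave 0.17 for *Prdm16* and 0.17 for *Zfp423*, and with the replicate block 0.12 and 0.13. Without YT-AKO 2 it gave 0.34 for *Zfp423*, and *Ctbp1* and *Tle3* were then called higher and *Irf4* lower (2 and 1 members), among 2651 genes called higher and 1441 lower. Library totals gave -0.24 for *Ctbp2*, -0.20 for *Ebf2* and -0.29 for *Tle3*, and the GC correction -0.082 for *Ctbp2* and -0.065 for *Tle3*. *Tle3* was -0.0014 with DESeq2, -0.024 with limma-voom, -0.033 with upper-quartile scaling and -0.022 with 10 counts in every library, and *Ebf2* was -0.042 with limma-voom.

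The deviations of same-numbered libraries from their group means correlated at 0.114, -0.111 and -0.0906, and those of differently numbered libraries at -0.13 to 0.149. With 3 libraries per group, these values cannot show whether the replicate numbers pair the libraries. With the number as a block, 24 genes were called higher and 9 lower, of the 69 related genes outside the members 2 higher and 0 lower, and of the members 0 lower, although 2 members and 5806 of the 16807 genes had an unadjusted p under 0.05 with edgeR. *Ebf2* was then -0.028 and *Tle3* -0.023. Block and length correction together called 46 genes higher and 19 lower, 3 and 0 of the 69 related genes, and 0 members lower.

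Counts of calls moved by over 1.5 times elsewhere too. Library totals called 1137 genes higher and 2828 lower and 13 of the 69 related genes lower, against 7 in the main test. DESeq2 called 11 of these lower and the length correction 2, with 696 of all genes lower. With each library left out, 0 to 2925 genes were called higher and 0 to 2424 lower, 0 to 20 and 0 to 12 of the 69 related genes, and 0 to 1 members higher and 0 to 2 lower. Without YT-FF 1 edgeR called no gene and without YT-FF 2 it called 2, while 4665 and 4507 genes had an unadjusted p under 0.05 (1 member in each). Over the same fits *Ctbp2* ran from -0.029 to 0.19, *Ebf2* from -0.32 to 0.40, *Tle3* from -0.19 to 0.17 and *Zfp423* from -0.28 to 0.22, and the log2 ratio of *Zfp423* to *Ebf2* from -0.19 to 0.097. Counts were lowest for *Foxc2*, at 14 to 28 per library, and the effect of depth on the other members was not tested. Per gene span in place of exons, *Ctbp1*, *Tle3* and *Irf4* stayed the most abundant members in YT-FF and *Prdm16* was the least, at 0.716 TPM.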
